A study of Mus musculus with 6 samples.

Results

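The interleukin-1 (IL-1) family is described here through 10 genes: the ligands Il1a, Il1b and Il33, the antagonist Il1rn, the decoy receptor Il1r2, the receptors Il1r1, Il1rap and Il1rl1, and the receptor-proximal kinases Irak2 and Irak3. They were listed by gene symbol. All 10 were found among the 28812 genes of the deposited table, and all 10 were among the 17290 genes that passed the filter on low counts. Poly(A) RNA of mouse chondrocytes, the cells of cartilage, was sequenced in 6 libraries. In 3 libraries (vehicle) the cells had received IL-1β and vehicle, and in the other 3 (mitochondria) they had received IL-1β and mitochondria; the series title gives osteocytes as the mitochondria's source. Both groups carry the labels OA (osteoarthritis) and wt genotype, and both received IL-1β, so the cells' state before IL-1β was not analysed here. Replicates are not stated to be separate cultures or animals, so p-values measure only the spread between these libraries, which may be technical.

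IL-1α and IL-1β signal through the same receptor, IL1R1, which needs the co-receptor IL1RAP and passes the signal to MYD88, IRAK kinases and NF-κB. IL1RN occupies that receptor without signalling, and IL1R2 captures ligand without a signalling domain. IL-33 uses a parallel receptor, ST2 (the product of Il1rl1), with the same co-receptor, and in cartilage IL-1 is best known for inducing matrix-degrading enzymes. The Il1b values below are of transcripts, not of the IL-1β that was given to all cultures.

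Total deposited counts were between 63547854 and 66293786 per library, and a count of exactly 4 was 2.31 to 2.84 times as frequent among genes as the counts beside it. A sequenced fragment is therefore taken as worth about 4 counts. This is an estimate from the values, and other low counts such as 2 and 10 occur, so fragment numbers below are approximate. Chondrocyte genes were present in every library, with a mean of 112 FPKM (the authors' level per length of transcript and per depth) of Col2a1, the chain of type II collagen, in vehicle and 96 FPKM in mitochondria. Other chondrocyte markers had lower vehicle means, from 0.337 FPKM for Matn3 to 44.9 FPKM for Col11a1, with Acan at 1.87 FPKM. Synovial fibroblast markers ranged from 0.0397 FPKM for Clic5 to 232 FPKM for Col3a1 in vehicle. The purity of the cultures was not tested. The first principal component, 59.7% of the variance, placed the vehicle libraries at -20.61, -38.19 and -38.26 and the mitochondria libraries at 54.68, 18.97 and 23.4, so mitochondria replicate 1 lay farthest from vehicle. Counting strand and the treatment of overlapping genes are not given in the sources used here, so reads of a gene and an overlapping partner cannot be told apart.

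The sequences before the start sites of Il1b, Il1a, Il1rn and Il1r1 are shown because the first 3 encode the ligands and the antagonist that compete for 1 receptor, and the fourth is the only member window with a match to the NF-κB consensus. They are the 250 bases before the start from RefSeq on GRCm38.p6, 5′ to 3′ on the gene's strand: chr2:129371140-129371389 (minus strand) for Il1b, chr2:129309973-129310222 (minus strand) for Il1a, chr2:24336610-24336859 (plus strand) for Il1rn, and chr1:40266336-40266585 (plus strand) for the second start of Il1r1. Capitals mark matches to TATAAA, to the AP-1 site TGANTCA or to the NF-κB consensus on either strand.
Il1b: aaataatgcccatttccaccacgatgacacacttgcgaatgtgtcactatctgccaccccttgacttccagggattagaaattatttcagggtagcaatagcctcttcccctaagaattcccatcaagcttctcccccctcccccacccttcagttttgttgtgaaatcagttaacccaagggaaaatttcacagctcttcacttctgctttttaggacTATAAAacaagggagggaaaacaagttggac
Il1a: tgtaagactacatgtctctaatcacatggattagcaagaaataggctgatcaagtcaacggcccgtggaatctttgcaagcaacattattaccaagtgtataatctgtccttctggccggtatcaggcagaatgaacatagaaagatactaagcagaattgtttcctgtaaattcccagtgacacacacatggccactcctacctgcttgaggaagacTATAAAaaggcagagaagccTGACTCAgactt
Il1rn: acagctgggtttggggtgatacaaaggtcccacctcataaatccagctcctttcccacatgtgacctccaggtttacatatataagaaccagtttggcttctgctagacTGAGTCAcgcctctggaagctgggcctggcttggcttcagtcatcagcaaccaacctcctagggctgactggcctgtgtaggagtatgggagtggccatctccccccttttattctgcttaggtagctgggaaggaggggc
Il1r1: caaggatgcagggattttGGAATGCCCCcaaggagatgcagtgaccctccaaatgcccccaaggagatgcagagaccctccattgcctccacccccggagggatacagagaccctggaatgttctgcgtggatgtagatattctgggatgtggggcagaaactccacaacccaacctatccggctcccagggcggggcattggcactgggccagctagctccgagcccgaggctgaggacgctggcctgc
The neighbouring Il1b and Il1a share a TATA box at nearly the same distance from the start, at -31 for Il1b and -32 for Il1a, counting the first base before the start as -1 and giving the first base of the match. Il1a also has an AP-1 match at -12, and Il1rn has one at -141. The Il1rn start shown is the most upstream of several in RefSeq, and its other windows had no AP-1 match. The Il1r1 match to the NF-κB consensus begins at -232.

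All 10 members had RefSeq windows, 16 in all, each 300 bases long and reaching a short way past the start. TATAAA lay in 5 of the 16 windows, those of Il1a, Il1b, Il1rn and Il33, against 13.6% of the 32851 windows of all genes. In Il1rn the match was on the opposite strand at position 15, past the start, and the Il33 matches began at -203 and -29. The AP-1 site lay in 2 of 16, against 7.81%, and the NF-κB consensus in 1 of 16, against 4.51%. The antioxidant response element core TGACNNNGC was found in 2 windows, the second one of Il1rl1 and that of Irak2, against 12.4% of all windows. The STAT element TTCNNNGAA was found in 1, that of Il1r2, against 8.3%. These are matches of letters on both strands, overlaps between motifs allowed, in windows that leave out more distant regulatory sequence.

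Of the 10 members, 6 passed the edgeR quasi-likelihood test at an adjusted p of 0.05, against 14.8% of all 17290 genes tested. Il1b was the 1 member that rose with mitochondria, where 6.36% of all genes were called higher. Il1rn, Il1r1, Il33, Il1rl1 and Irak3 were the 5 that fell, where 8.46% of all genes were called lower. The other 4, Il1a, Il1r2, Il1rap and Irak2, did not pass. In 7 of 10 members the vehicle and mitochondria libraries stood fully apart, against 40.7% of all genes. The members' median log2 fold change was -0.45 and that of all genes 0.00, and since the genes were listed with results of these data known, these shares are a description. Of all called genes 42.9% were higher. With offsets for each transcript's GC content 57.7% were higher, and the members' median was then -0.15.

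**Figure D1:**
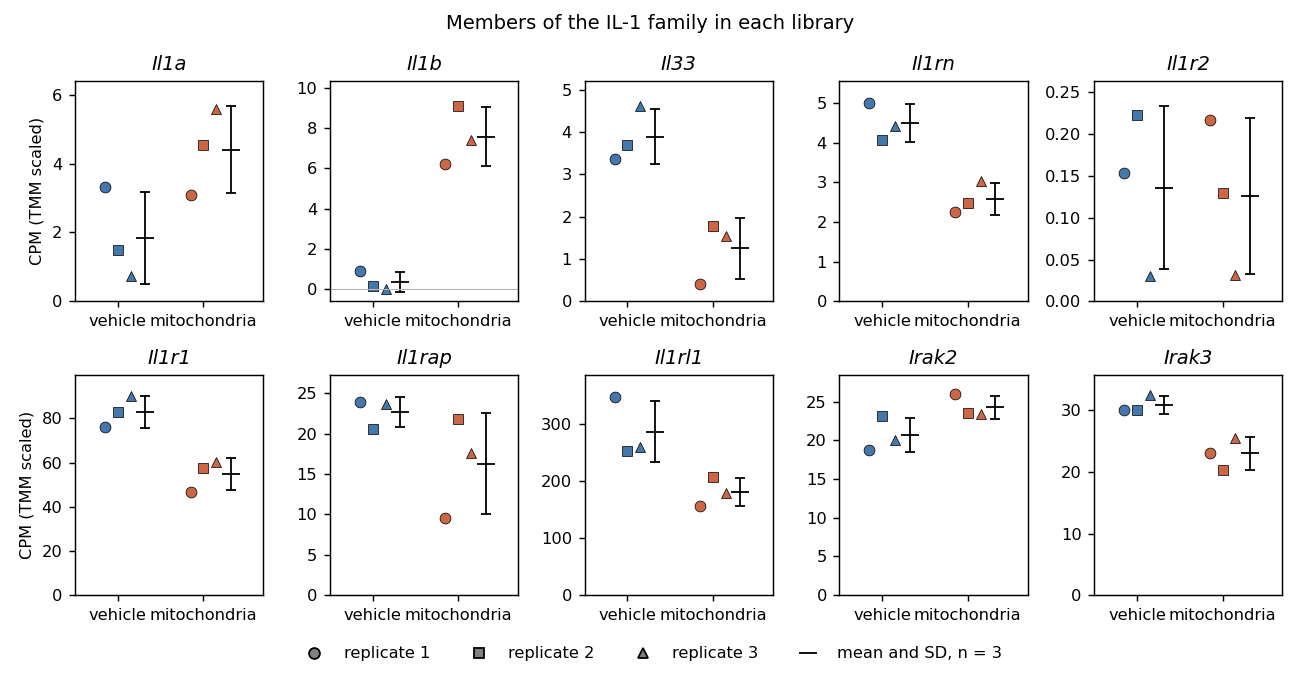
Level of each of the 10 members in each library, as TMM-scaled CPM on a linear axis starting at or just below 0. Points are libraries, with the shape giving the replicate number, and bars are the mean and SD of 3; the groups lie apart in 7 members and overlap in Il1a, Il1r2 and Il1rap.

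Il1b encodes IL-1β, the secreted ligand that all of these cultures had been given as protein, and its transcript rose from near the limit of detection. The gene (ENSMUSG00000027398) lies on chromosome 2 at 129364570 to 129371139 on the minus strand, in GRCm38 coordinates as for all genes below. It had 59, 10 and 0 deposited counts in vehicle replicates 1, 2 and 3, and 400, 565 and 468 in mitochondria replicates 1, 2 and 3. Vehicle replicate 3 had no read, which allows up to 3 fragments or 12 counts, and the lowest mitochondria library lay well above the highest vehicle library. As CPM (counts relative to the library's total, with TMM factors) the libraries were at 0.906, 0.149 and 0 in vehicle and at 6.21, 9.1 and 7.39 in mitochondria. The mean went from 0.351 ± 0.486 CPM to 7.57 ± 1.46 CPM (SD, n = 3 each), a ratio of 21.5. The log2 fold change was 4.43 ± 0.91 (SE; edgeR adjusted p = 0.017). The vehicle level rests on about 17.2 fragments in all 3 libraries together, against 358 in mitochondria, and the call was lost without vehicle replicate 2 (4.06, adjusted p = 0.081). Vehicle replicate 1 held 59 of the 69 vehicle counts, and without it the estimate was 6.62 (adjusted p = 0.003). The range over the 6 fits that left out 1 library was 3.84 to 6.62, so the size of the rise depends on a few vehicle reads. Without vehicle replicate 3, the library with no read, the estimate was 3.84 (adjusted p = 0.034).

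The mitochondria libraries had also received a preparation from other cells, and whether RNA came with it was not tested. The 8 osteocyte markers in the table summed to 2.15 to 3.14 CPM in vehicle and 2.34 to 2.68 CPM in mitochondria, and none of the 4 tested passed in edgeR (0 at an unadjusted p below 0.05 and 0 in DESeq2). Sost and Dmp1, 2 defining osteocyte genes, were at the floor in both groups, with 4 counts each in vehicle and 0 in mitochondria. Of the 4 tested estimates 3 were above 0 and 1 was below. The largest was that of Fgf23, with 49 counts in vehicle and 119 in mitochondria (1.34 ± 0.73, edgeR adjusted p = 0.25). Dkk1, too low to be tested, went the other way without overlap. It had 7, 26 and 27 counts in vehicle and 0 in every mitochondria library. In these bulk libraries a change in the number of cells of a type and a change in RNA per cell cannot be told apart. Macrophages and neutrophils are the best-known sources of IL-1β, so their markers were read beside it. The summed level of 15 macrophage markers was 77.1 to 94.1 CPM in vehicle and 77.1 to 93.5 CPM in mitochondria, overlapping ranges. None of the 14 that could be tested passed in edgeR (3 had an unadjusted p below 0.05, and 2 passed in DESeq2), and none was at 0 in all libraries. Their estimates went both ways, 6 above 0 and 8 below. Cd14, a co-receptor for lipopolysaccharide, had 27.6, 21.8 and 23.3 CPM in vehicle and 36.2, 30.6 and 31.3 CPM in mitochondria, without overlap (0.43 ± 0.13, edgeR adjusted p = 0.056; 0.025 in DESeq2, and 0.049 in edgeR with GC offsets). Estimates were also above 0 for Adgre1 (0.95 ± 0.43, adjusted p = 0.17), Cd68 (0.54 ± 0.25, adjusted p = 0.17) and Itgam (adjusted p = 0.17). The estimates farthest from 0 were below it, those of C1qa (-2.73 ± 1.49, edgeR adjusted p = 0.25) and C1qc (-2.20 ± 0.99, adjusted p = 0.17). C1qb (-1.41 ± 0.85, adjusted p = 0.29) and Mrc1 (-0.78 ± 0.42, adjusted p = 0.24) were below 0 as well. For C1qa, C1qb, C1qc and Mrc1 the groups overlapped. Lyz2, the lysozyme gene with the highest level in the list, was at -0.41 ± 0.17 (adjusted p = 0.14), opposite in sign to Cd14, so the sum mixes both directions. Ptprc, the pan-leukocyte phosphatase CD45, had 1.14, 0.639 and 2.06 CPM in vehicle and 0.481, 0.371 and 0.3 CPM in mitochondria (log2 fold change -1.73 ± 0.54, edgeR adjusted p = 0.064; 0.023 in DESeq2). The neutrophil markers summed to 29.6 to 32.3 CPM and to 30.2 to 39.3 CPM, with 8 of 9 estimates below 0. The ninth, Camp, which encodes an antimicrobial peptide, rose from 14.2, 11.2 and 10.2 CPM to 25.5, 24.7 and 21.2 CPM (edgeR adjusted p = 0.0074). Camp held a large part of the neutrophil sum, which thus hides the lower estimates of the others. The median of this list was -0.98, and 0 of its genes were called lower. S100a9 (-1.13 ± 0.50) and Ltf (-0.98 ± 0.43) were lower without overlap (edgeR adjusted p = 0.16 for each). Mpo was at -1.18 ± 0.50 with overlap (adjusted p = 0.14). The part of these markers in the rise of Il1b was not tested. The antisense gene Il1bos, which overlaps the start of Il1b, had 16 counts in mitochondria replicate 3 and 0 in every other library.

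Il1a (ENSMUSG00000027399, chromosome 2, 129299610 to 129309972, minus strand) encodes IL-1α, which binds the same receptor as IL-1β and is active without cleavage. It lies 54.6 kb from Il1b. Its level was 3.33, 1.49 and 0.735 CPM in vehicle and 3.09, 4.54 and 5.6 CPM in mitochondria. Vehicle replicate 1 was just above mitochondria replicate 1, so the groups overlapped. The mean was 1.85 ± 1.34 CPM in vehicle and 4.41 ± 1.26 CPM in mitochondria (SD, n = 3 each). The log2 fold change of 1.25 ± 0.49 did not pass (edgeR adjusted p = 0.12). It passed without vehicle replicate 1, where the estimate was 1.98 (adjusted p = 0.024; range 0.87 to 1.98 with 1 library left out), in DESeq2 (adjusted p = 0.035) and with GC offsets (1.86, edgeR adjusted p = 0.022). The predicted gene Gm14023, which overlaps Il1a on the other strand, had 55, 11 and 32 counts in vehicle and 51, 46 and 49 in mitochondria.

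Il33 (ENSMUSG00000024810, chromosome 19, 29925114 to 29960718, plus strand) encodes IL-33, a nuclear cytokine released from damaged cells. It fell, with 3.36, 3.7 and 4.61 CPM in vehicle and 0.419, 1.77 and 1.55 CPM in mitochondria. All 3 mitochondria libraries were below all vehicle libraries, and mitochondria replicate 1 was the lowest. The mean went from 3.89 ± 0.643 to 1.25 ± 0.725 CPM (SD, n = 3 each), a ratio of 0.32. The log2 fold change was -1.64 ± 0.47 (edgeR adjusted p = 0.047), and the call was lost without vehicle replicate 1, 2 or 3 or without mitochondria replicate 3, with adjusted p-values up to 0.16. With GC offsets the estimate was -1.15 (adjusted p = 0.047).

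Epithelial and fibroblastic cells are known sources of IL-33, and several of their markers were lower with mitochondria too. The 7 epithelial markers summed to 8.96 to 12.8 CPM in vehicle and 3.8 to 4.01 CPM in mitochondria, and 3 of the 5 tested fell (Krt14, Krt8 and Trp63). The defining genes Epcam and Krt5 had no reads in any vehicle library, and 1 of the 5 estimates, that of Cdh1, was above 0 (1.09 ± 0.86, edgeR adjusted p = 0.43). The 9 endothelial markers leaned the other way, summing to 5.71 to 7.23 CPM in vehicle and 7.2 to 10.6 CPM in mitochondria. Of their 6 tested genes 5 had estimates above 0 and 1 below, and 0 passed. The 9 synovial fibroblast markers summed to 3294 to 3745 CPM and to 2834 to 3074 CPM, and 4 of 9 fell (Thy1, Cd55, Pdgfra and Dpp4). For all of these marker lists, the shares over all genes tested were 6.36% called higher and 8.46% called lower. The 13 chondrocyte markers also summed lower, at 1949 to 2310 CPM in vehicle and 1605 to 1852 CPM in mitochondria, with 2 higher (Acan and Sox9) and 2 lower (Col11a1 and Hapln1). Without vehicle replicate 2 or 3 the calls were lost for all of these markers but Dpp4 and Col11a1, and with any 1 library left out their adjusted p reached at most 0.16. The part of these shifts in the fall of Il33, Il1r1 and Il1rl1 was not tested.

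Il1rn (ENSMUSG00000026981, chromosome 2, 24336853 to 24351494, plus strand) encodes the IL-1 receptor antagonist. It fell from 5, 4.06 and 4.41 CPM in vehicle to 2.25, 2.47 and 3.03 CPM in mitochondria, without overlap. The mean went from 4.49 ± 0.477 to 2.58 ± 0.403 CPM (SD, n = 3 each), a ratio of 0.575. On the log2 scale the change was -0.80 ± 0.22 (edgeR adjusted p = 0.041). This call lay close to the threshold: leaving out any 1 of the 6 libraries gave an adjusted p of 0.058 to 0.13, with estimates from -0.93 to -0.71, and GC offsets gave -0.56 (adjusted p = 0.087).

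Il1r2 (ENSMUSG00000026073, chromosome 1, 40074079 to 40125231, plus strand), the decoy receptor, was almost undetected. It had 10, 15 and 2 counts in vehicle and 14, 8 and 2 in mitochondria, which is about 6.75 fragments in one group and 6 in the other. The groups overlapped and the log2 fold change was -0.10 ± 1.04 (edgeR adjusted p = 0.96). A change was not detectable at this depth.

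Since the antagonist competes with the ligands for binding, their ratio was taken within each library from FPKM, which is per transcript length. A ratio within a library is free of library scaling, unless a constant is added to both genes. With 0.1 FPKM added to both genes, since 1 vehicle library had no Il1b, the ratio of Il1rn to Il1b was 1.75, 4.63 and 8.38 in vehicle and 0.153, 0.113 and 0.164 in mitochondria. Antagonist transcript thus exceeded Il1b in all vehicle libraries and was below it in all mitochondria libraries. The difference in log2 ratio, mitochondria minus vehicle, was -4.85 (exact two-sided permutation p = 0.10, the smallest that the 20 assignments of 3 against 3 allow). Its size depends on the added 0.1, since Il1b was at 0.43, 0.0692 and 0 FPKM in vehicle. The difference was -5.48 with CPM in place of FPKM, and -5.46 to -4.33 with 1 library left out.

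The ratio of Il1rn to Il1a was 0.533, 0.967 and 2.13 in vehicle and 0.257, 0.191 and 0.191 in mitochondria. These groups did not overlap either, although Il1a alone did, and the difference in log2 ratio was -2.29 (exact permutation p = 0.10). The decoy against its receptor, Il1r2 to Il1r1, was 0.0066, 0.00881 and 0.00109 in vehicle and 0.0146, 0.00694 and 0.00173 in mitochondria. The groups overlapped (difference in log2 ratio 0.49, exact permutation p = 0.60), and decoy transcript was at most 0.0146 times that of the receptor in any library. With 3 ratios tested at a smallest p of 0.10, none could pass 0.05.

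**Figure D2:**
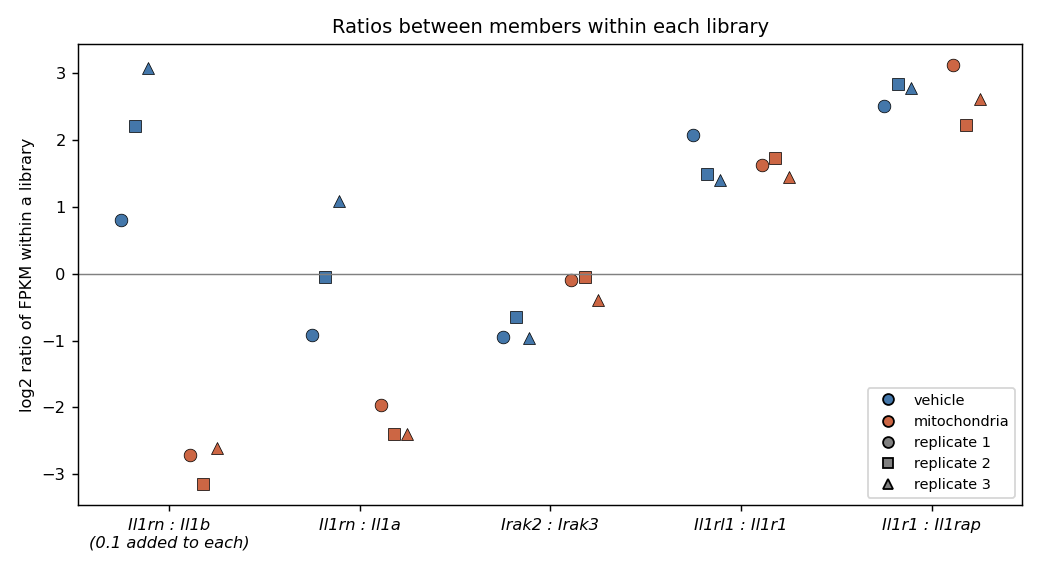
Ratio of FPKM between pairs of members within each library, on a log2 axis, with 0.1 FPKM added to both genes for Il1rn against Il1b. The groups lie apart for Il1rn against each ligand and for Irak2 against Irak3, and overlap for Il1rl1 against Il1r1 and for Il1r1 against Il1rap.

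Il1r1 (ENSMUSG00000026072, chromosome 1, 40225080 to 40317257, plus strand) encodes the signalling receptor of IL-1α and IL-1β. It fell from 76, 82.8 and 90.2 CPM in vehicle to 46.5, 57.4 and 60.4 CPM in mitochondria. Every mitochondria library lay below every vehicle library, with mitochondria replicate 1 again the lowest. The mean went from 83 ± 7.12 to 54.8 ± 7.28 CPM (SD, n = 3 each), a ratio of 0.66. The log2 fold change was -0.60 ± 0.12 (edgeR adjusted p = 0.017), and was -0.55 with GC offsets (adjusted p = 0.0068). The call was lost without vehicle replicate 2 or without vehicle replicate 3, with adjusted p-values up to 0.087 and estimates from -0.68 to -0.50 over the 6 fits that left out 1 library.

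Il1rl1 (ENSMUSG00000026069, chromosome 1, 40429570 to 40448148, plus strand) encodes ST2, which exists as a membrane receptor for IL-33 and as a soluble decoy made from a shorter transcript. It was the most abundant member by FPKM in both groups, at 46.2, 34.4 and 35.1 FPKM in vehicle and 20.1, 26.3 and 23.1 FPKM in mitochondria. Its mean level was at the 91.6th percentile of the tested genes. In CPM it fell from 347, 252 and 259 to 156, 206 and 179, without overlap. Means were 286 ± 52.8 and 180 ± 24.8 CPM (SD, n = 3 each), a ratio of 0.63. This was a log2 fold change of -0.67 ± 0.15 (edgeR adjusted p = 0.022). Leaving out mitochondria replicate 3, or either of vehicle replicates 2 and 3, ended the call (adjusted p up to 0.073), and so did GC offsets (-0.30, adjusted p = 0.13).

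The gene has 4 annotated transcripts, and its counts are summed over them, so soluble and membrane ST2 were not separated. Mast cells are known for high ST2, and their markers were read beside it. Mcpt4 and Ms4a2 had no reads in any library, Cpa3 had 4 counts in all, and Kit had 91 counts in vehicle and 42 in mitochondria. Hdc had 42 and 38, and Cma1 had 4 and 21. The 6 mast cell markers in the table summed to 0.327 to 0.96 CPM in vehicle and 0.355 to 0.636 CPM in mitochondria, and their part in the level of Il1rl1 was not tested.

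Il1rap (ENSMUSG00000022514, chromosome 16, 26581704 to 26730117, plus strand) encodes the co-receptor shared by the IL-1, IL-33 and IL-36 receptors. Its level was 23.9, 20.6 and 23.7 CPM in vehicle and 9.56, 21.8 and 17.6 CPM in mitochondria. Mitochondria replicate 2 lay inside the vehicle range and mitochondria replicate 1 lay far below it. The log2 fold change was -0.48 ± 0.26 (edgeR adjusted p = 0.24), and it turned to 0.12 with GC offsets (adjusted p = 0.63).

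Between the receptor chains, the ratios of FPKM overlapped between the groups, which is given as a description with no test. Il1rl1 was 4.21, 2.81 and 2.65 times Il1r1 in vehicle and 3.1, 3.31 and 2.73 times in mitochondria, overlapping. Il1r1 was 5.69, 7.17 and 6.8 times Il1rap in vehicle and 8.71, 4.71 and 6.12 times in mitochondria, overlapping as well. Both ligand-binding chains were therefore more abundant than the shared co-receptor in every library, by transcript level per length.

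Il1r2, Il1r1 and Il1rl1 belong to a cluster of 6 receptor genes on chromosome 1 spanning 478 kb, from 40074079 to 40551705. The other members of the cluster are Il1rl2, the IL-36 receptor, and Il18r1 and Il18rap, the chains of the IL-18 receptor. All 6 had estimates below 0, and 2 of them, Il1r1 and Il1rl1, passed the test. Beside this, 8.46% of all genes tested were called lower, and 8595 of 17290 estimates lay below 0. Il1r2 (-0.10 ± 1.04) and Il18r1 were near the floor, so their signs carry little. Il1rl2, which lies 7.35 kb from Il1r1, had 22.6, 20.9 and 23.9 CPM in vehicle and 15.3, 19.7 and 18.7 CPM in mitochondria, without overlap, but did not pass (-0.33 ± 0.13, edgeR adjusted p = 0.13). Il18rap was at -0.23 ± 0.25 (adjusted p = 0.59). Il18r1 was nearly undetected, with 17, 4 and 24 counts in vehicle and 0, 10 and 0 in mitochondria. With GC offsets the estimates of Il1r2 and Il18rap were 0.01 and 0.04, so the common sign did not hold under that setting.

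Irak2 (ENSMUSG00000060477, chromosome 6, 113638467 to 113695026, plus strand) encodes a kinase of the receptor complex that sustains NF-κB signalling. It had 18.8, 23.1 and 20 CPM in vehicle and 26, 23.5 and 23.4 CPM in mitochondria. The groups were separated only narrowly in CPM, and in FPKM they overlapped. Its log2 fold change was 0.23 ± 0.12 (edgeR adjusted p = 0.23).

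Irak3 (ENSMUSG00000020227, chromosome 10, 120141648 to 120202130, minus strand) encodes IRAK-M, an inhibitor of the same complex. It fell from 30, 30 and 32.5 CPM in vehicle to 23.1, 20.3 and 25.5 CPM in mitochondria, without overlap. The mean went from 30.9 ± 1.44 to 23 ± 2.63 CPM (SD, n = 3 each), a ratio of 0.745. On the log2 scale it changed by -0.42 ± 0.12 (edgeR adjusted p = 0.047). The call held only without mitochondria replicate 1 (adjusted p = 0.049) among the 6 fits that left out 1 library, and the others reached an adjusted p of 0.19. With GC offsets it was -0.35 (adjusted p = 0.064). The start of Irak3 overlaps that of Tmbim4 on the other strand, which had 4557, 4630 and 4352 counts in vehicle and 5520, 4993 and 5098 in mitochondria (0.27, edgeR adjusted p = 0.068).

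The FPKM ratio of Irak2 to its inhibitory relative Irak3, looked at after their values were seen and therefore not tested, was 0.522, 0.64 and 0.513 in vehicle and 0.934, 0.964 and 0.763 in mitochondria. It was higher in every mitochondria library than in any vehicle library, and Irak3 remained the more abundant of the pair in all 6.

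**Figure D3:**
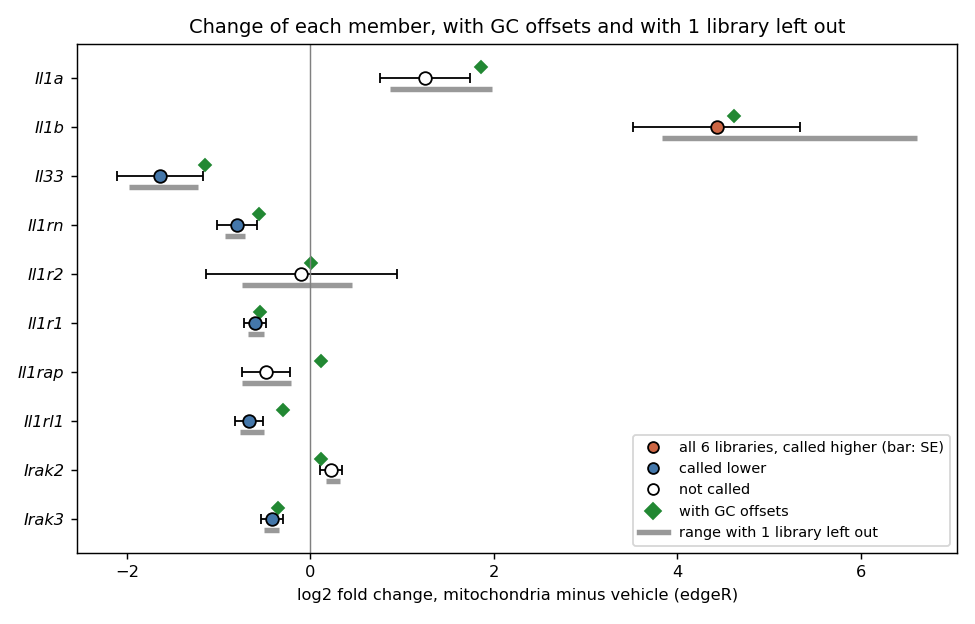
Log2 fold change of each member, mitochondria minus vehicle, from edgeR on all 6 libraries (circle, bar for SE; filled where the adjusted p was at most 0.05), with GC offsets (diamond) and as the range over the 6 fits that left out 1 library (grey). Il1b stands at 4.43 and the 5 called lower lie between -1.64 and -0.42, while the Il1rap estimate crosses 0 with GC offsets and the Il1r2 range spans 0.

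By FPKM the order of the members in vehicle was Il1rl1 (38.6), Il1r1 (12.1), Irak3 (7.81), Irak2 (4.35), Il1rap (1.86), Il33 (1.25), Il1a (0.867), Il1rn (0.749), Il1b (0.166) and Il1r2 (0.0649), as means of 3 libraries. The genes Il1rl1, Il1r1 and Il1rap and the kinases thus stood above the 3 member ligands, and Il1r2 came last. The place of Il1rl1 covers membrane receptor and soluble decoy together, so signalling and decoy transcripts cannot be ranked. Neighbours whose library values overlapped were Il33 with Il1a, Il1a with Il1rn, and Il1b with Il1r2. In mitochondria the first 4 places were the same, at 23.2, 7.64, 5.55 and 4.87 FPKM, with Irak3 and Irak2 now overlapping. Il1b came next at 3.51 ± 0.671 FPKM (SD, n = 3), above Il1a (1.98), Il1rap (1.27), Il1rn (0.409), Il33 (0.378) and Il1r2 (0.0548). Il1b had moved from the second lowest place to the most abundant ligand transcript, and its range did not overlap that of Il1a. Il1a overlapped Il1rap, and Il1rn overlapped Il33.

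Other ligands of the family did not pass the test. Il18, which encodes the inflammasome-processed cytokine IL-18, had a mean of 1.95 FPKM in vehicle, above the means of Il33, Il1a and Il1b there, and 1.36 FPKM in mitochondria. Its log2 fold change was -0.44 ± 0.39 (edgeR adjusted p = 0.49). The IL-36 ligand genes Il36a and Il36g, listed in the table as Il1f6 and Il1f9, had estimates of 0.71 ± 0.53 (adjusted p = 0.41) and 0.85 ± 0.53 (adjusted p = 0.31). Il36b and Il36rn were not analysed here. The list of ligands and soluble antagonists had 8 tested genes with 1 higher and 2 lower, all members, and a median of 0.45. The list of receptors had 8 tested genes with 0 higher and 2 lower, again members, and a median of -0.40. Beside both lists, 6.36% of all genes tested were called higher and 8.46% lower. Sigirr, an inhibitory receptor of the family, had 12, 15 and 0 counts in vehicle and 8, 0 and 21 in mitochondria.

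Downstream of the receptor, none of the adaptors and kinases that all family receptors share passed the test. Myd88, the adaptor, was at -0.16 ± 0.12 (edgeR adjusted p = 0.37). Irak1 and Irak4, the kinases that act with it, were at 0.01 ± 0.09 (adjusted p = 0.96) and -0.05 ± 0.12 (adjusted p = 0.82). The ubiquitin ligase gene Traf6 was at -0.09 ± 0.18 (adjusted p = 0.78) and the inhibitory adaptor gene Tollip at -0.01 ± 0.08 (adjusted p = 0.97). Of 18 tested genes in this list, Irak3 was the only one that passed, against 14.8% of all genes tested, with a median of -0.05 for the list. Tab3 lay just outside the threshold without overlap (-0.94 ± 0.27, edgeR adjusted p = 0.053). It passed in DESeq2 (adjusted p = 0.006) and with GC offsets (-1.01, edgeR adjusted p = 0.03). Tab2 (-0.40 ± 0.16, edgeR adjusted p = 0.13) passed in DESeq2 (adjusted p = 0.046) but not with GC offsets (-0.08, edgeR adjusted p = 0.53).

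Of 14 tested genes that process or release the ligands, 3 rose and 2 fell, with a median of 0.15. Over all genes tested, 6.36% were called higher and 8.46% lower. Panx1, which encodes a membrane channel, rose from 22.5, 13 and 14.7 CPM in vehicle to 45.4, 38.9 and 34 CPM in mitochondria (1.24 ± 0.21, edgeR adjusted p = 0.0097). The calpain genes Capn1 (0.42 ± 0.12, adjusted p = 0.049) and Capn2 (0.29 ± 0.08, adjusted p = 0.035) also rose, and calpain is the protease known to cleave the IL-1α precursor. The Panx1 call was lost without vehicle replicate 3 (adjusted p = 0.058). The Capn1 call was lost with GC offsets (adjusted p = 0.058) and, like that of Capn2, without vehicle replicate 1, 2 or 3 or mitochondria replicate 3 (adjusted p up to 0.2 for Capn1 and 0.17 for Capn2); Capn2 was lost without mitochondria replicate 2 as well. Casp4, the caspase of the non-canonical inflammasome, fell by 0.92 on the log2 scale (adjusted p = 0.028), as did Nek7, a partner of NLRP3, by 0.72 (adjusted p = 0.041). With GC offsets these became -0.36 (adjusted p = 0.11) for Casp4 and 0.03 (adjusted p = 0.86) for Nek7. Both were lost without vehicle replicate 2 or 3 or mitochondria replicate 3, and Nek7 without vehicle replicate 1 too, with adjusted p-values up to 0.12 for Casp4 and 0.14 for Nek7.

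The canonical inflammasome that cleaves the IL-1β precursor was hardly represented. Casp1, the cleaving protease, had 16, 23 and 0 counts in vehicle and 12, 14 and 0 in mitochondria. Nlrp3 had 75, 6 and 62 counts in vehicle and 57, 117 and 72 in mitochondria, and the adaptor gene Pycard 28, 75 and 59 against 22, 26 and 29. Each of the 3 overlapped between the groups, and for none was a difference detectable at this depth.

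Among 18 feedback inhibitors, all tested, 3 rose and 3 fell, with a median of 0.08, where 6.36% of all genes were called higher and 8.46% lower. Nfkbia, which encodes the NF-κB inhibitor IκBα, had 137, 129 and 119 CPM in vehicle and 191, 175 and 170 CPM in mitochondria (0.47 ± 0.09, edgeR adjusted p = 0.015). Nfkbib (0.50 ± 0.14, adjusted p = 0.041) and Socs3 (0.46 ± 0.10, adjusted p = 0.022), an inhibitor of cytokine receptor signalling, rose as well. Both calls were lost with GC offsets, at 0.32 (adjusted p = 0.15) and 0.20 (adjusted p = 0.099). Tnip3, an inhibitor of NF-κB activation, fell by 1.07 on the log2 scale (adjusted p = 0.011), the deubiquitinase gene Cyld by 0.57 (adjusted p = 0.025), and the MAP kinase phosphatase gene Dusp1 by 0.34 (adjusted p = 0.0496). With GC offsets Tnip3 and Cyld were at -0.31 (adjusted p = 0.17) and 0.01 (adjusted p = 0.94). Each of these 6 calls was lost without vehicle replicate 3, and each but that of Tnip3 without vehicle replicate 2. Omitting mitochondria replicate 3 ended those of Nfkbib, Socs3, Cyld and Dusp1, omitting mitochondria replicate 2 those of Nfkbib and Dusp1, and omitting vehicle replicate 1 that of Dusp1. The highest adjusted p-values were 0.089 for Nfkbia, 0.17 for Nfkbib, 0.11 for Socs3, 0.059 for Tnip3, 0.099 for Cyld and 0.2 for Dusp1. The 56 tested genes of the 5 lists that are not members held 6 that rose and 5 that fell, with a median of -0.01. Of all genes tested, 14.8% were called in either direction.

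**Figure D4:**
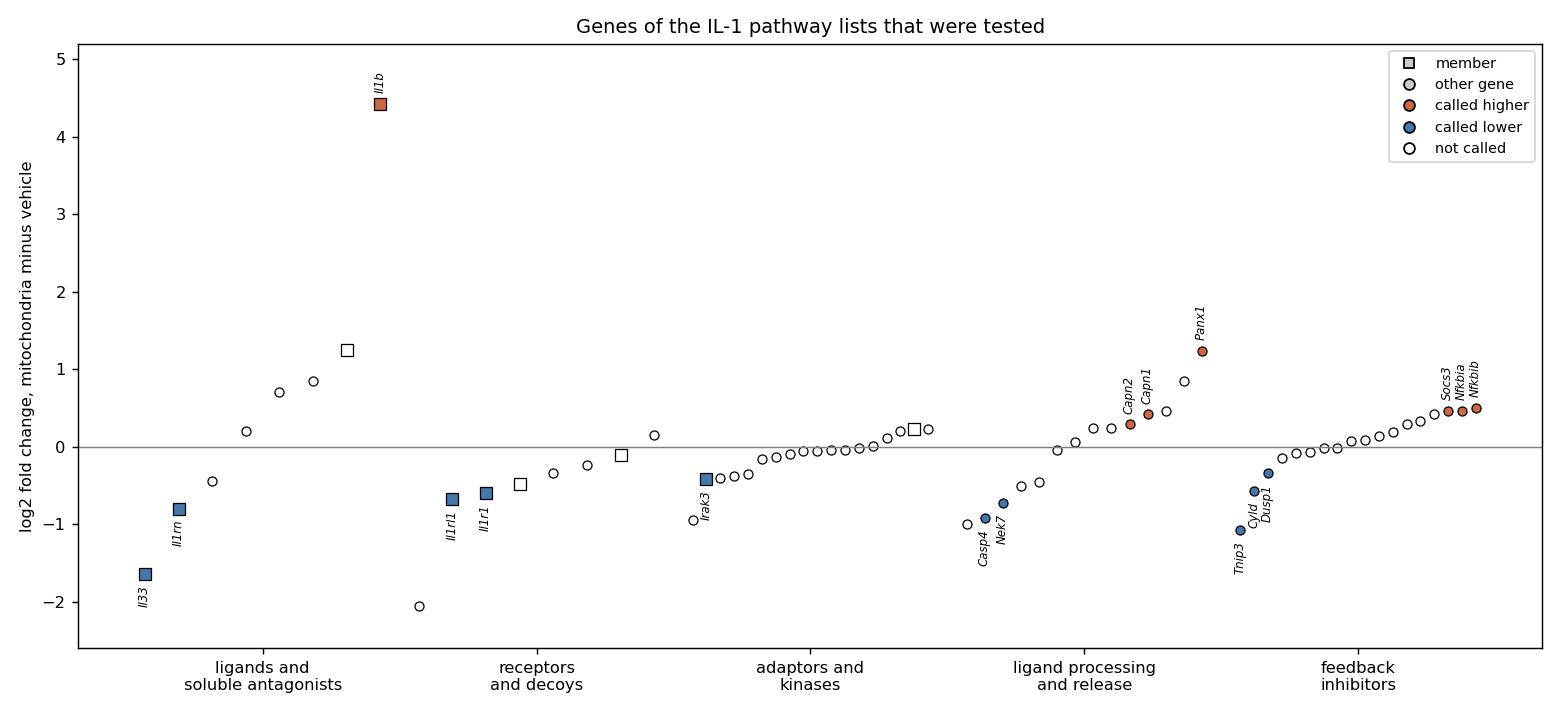
Log2 fold change, mitochondria minus vehicle, of every tested gene in the 5 IL-1 pathway lists, sorted within each list; squares are members, circles other genes, and filled symbols passed edgeR at an adjusted p of 0.05. Il1b is the highest point, all called receptors are lower, and the processing and feedback lists hold calls in both directions.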

How the data were processed

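The authors deposited 1 table with FPKM (normalised by the authors for length and depth) and estimated counts per gene and library, whole numbers that were not normalised. The submitters' processing notes name HISAT2 2.0, StringTie 1.3.0, Bowtie 0.12.2 and the build mm8, without roles. The table's coordinates were compared with GENCODE M21 on GRCm38: 24966 of the 28732 identifiers found there (86.9%) matched exactly, 9 of the 10 members among them, and Il1rl1 differed in its end. The test was run with edgeR 4.0.16 under R 4.3.3 (TMM scaling, filterByExpr with minimum count 10, quasi-likelihood test, group as the only term, Benjamini-Hochberg over all genes tested, threshold 0.05). CPM uses TMM factors. GC offsets are a smooth on transcript GC content of each library's log2 CPM, taken relative to the gene's mean over the 6 libraries. They therefore also take out any difference between the groups that follows GC content. Il1b was the member with the largest called change, for which the 5 genes most alike over the 6 libraries were taken. Named genes were the 10 members, up to 6 called genes per list, and fixed partners. The fit was tested on simulated data. DESeq2 1.42.0 and limma 3.58.1 served as alternatives. The members and lists were chosen with earlier results of these data known. Fragment numbers and floors cover counting error only.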

Additional observations from a re-analysis of the deposited data

How the results depend on the processing

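Over all genes, 864 were called with no filter on counts and 442 to 2780 when 1 library was left out, against 2562; the lowest came from omitting vehicle replicate 3 and the highest from omitting mitochondria replicate 1, with 446 when vehicle replicate 2 and 1132 when mitochondria replicate 3 was omitted. Of the members, 0 were called by edgeR with no filter (6 at an unadjusted p below 0.05; 7 by DESeq2), 3 with the replicate block (Il1b, Il1r1 and Il33), and 0 to 5 with 1 library left out; the 0 was without vehicle replicate 2 (6 at an unadjusted p below 0.05), and without vehicle replicate 3 only Il1b was called. In the wider lists, members included, 17 genes were called, 3 with no filter, 9 with GC offsets, 11 with the replicate block and 1 to 16 with 1 library left out. The share called over all genes was 14.8% in the main fit, 3.32% with no filter and 14.2% in DESeq2. It was 20.5% with GC offsets, 13.2% with the replicate block and 2.46% to 15.4% with 1 library left out. Same-number libraries correlated at 0.0752, 0.0247 and 0.00987 once group means were removed and the other pairs at -0.057 to 0.048, and vehicle replicate 2 correlated best with mitochondria replicate 3, so the numbers were not taken to pair the libraries.

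The sign changed for Il1rap with GC offsets (0.12) and for Il1r2 with GC offsets (0.01), without vehicle replicate 2 (0.45) and without mitochondria replicate 3 (0.35); its range with 1 library left out was -0.74 to 0.45. The difference in log2 ratio of Il1r2 to Il1r1 ranged from -0.45 (without vehicle replicate 3) to 1.33 with 1 library left out, and was -0.20 without mitochondria replicate 1. The estimates of the other 8 members kept their sign under every alternative run. Of those alternatives, Il1b kept its call in 14 of 16, Il1r1 in 13, Il33 in 11, Il1rl1 in 10, Irak3 in 8 and Il1rn in 4, while Il1a gained one in 4. The cause of these changes was not tested. Depth limits Il1r2, and the vehicle level of Il1b, to a few fragments.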

Other observations

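The 5 tested genes whose log2 CPM followed that of Il1b most closely, each centred over the 6 libraries with 0.5 CPM added, were Acsbg1, Aldh3a1, Mt3, Pgf and Apol9a, with root mean square differences of 0.42, 0.47, 0.50, 0.54 and 0.56. All 5 were called higher with mitochondria, which the choice by likeness to Il1b favours, so this is a description. With 1 library left out, the calls of Acsbg1 and Mt3 were lost in 4 of 6 fits each and that of Pgf in 3, while Aldh3a1 and Apol9a kept theirs in all 6. Aldh3a1, which encodes an aldehyde dehydrogenase, had 7.55, 5.5 and 3.84 CPM in vehicle and 47.3, 35.9 and 35.9 CPM in mitochondria. Pgf, the gene for placental growth factor, had 10.5, 2.65 and 3.08 CPM in vehicle and 25.8, 26.5 and 25.7 CPM in mitochondria. Vehicle replicate 1 was the highest vehicle library for all of these genes, as it was for Il1b and Il1a. Mt3, a metallothionein gene, was as low as Il1b, with 1.11, 0 and 0.27 CPM in vehicle and 6.81, 4.71 and 4.94 CPM in mitochondria.

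Ckap2l, a mitotic spindle gene next to Il1a on chromosome 2, fell while its neighbours Il1a and Il1b had estimates above 0. It had 792, 734 and 600 counts in vehicle and 168, 347 and 399 in mitochondria, and its log2 fold change was -1.15 (edgeR adjusted p = 0.039; up to 0.12 with 1 library left out, where the call held only without mitochondria replicate 1).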
